A study of Homo sapiens with 6 samples.

Results

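A set of 42 genes of endoplasmic reticulum (ER) protein folding and of the unfolded protein response were followed in HCT116 cells, a human colorectal carcinoma line, with and without knockdown of STRIP2, which encodes a striatin-interacting protein of STRIPAK complexes. The members were the rows of the deposited table whose gene symbol equalled a name on a fixed list, and all 42 of 42 names were found among the 61806 genes of the table. By role they were 9 sensors and signalling factors, 15 chaperones and folding enzymes, 11 genes of ER-associated degradation and 7 genes of the translocon. In all, 3 libraries (si-NC 1 to 3) came from cells labelled wildtype that received a control short interfering RNA, and 3 (si-STRIP2 1 to 3) from cells labelled STRIP2 knockdown that received a short interfering RNA against STRIP2. Both groups were grown in the same medium with serum, from 1 cell line. The labels give neither the number or sequence of the short interfering RNAs nor the time after transfection, nor is it stated that replicate libraries came from separate cultures, so that p-values measure the spread between these libraries.

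Secreted and membrane proteins enter the ER through the SEC61 channel, are glycosylated and folded there with the help of chaperones, and are sent to the proteasome by ER-associated degradation when folding fails. Unfolded protein in the ER activates 3 membrane sensors. ERN1 (IRE1 alpha) splices the XBP1 transcript so that it encodes an active transcription factor, EIF2AK3 (PERK) phosphorylates the translation factor eIF2 alpha, and ATF6 travels to the Golgi, where the proteases encoded by MBTPS1 and MBTPS2 release its transcription factor domain. The target genes encode chaperones, degradation factors and parts of the translocon, and include XBP1 and the chaperone HSPA5 (BiP), which itself binds and restrains the sensors. A gene-level count does not separate spliced from unspliced XBP1, and carries nothing on phosphorylation or cleavage of the sensors.

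The best known control sequence of these genes is the ER stress element (ERSE), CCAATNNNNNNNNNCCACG, which the factor NF-Y and the cleaved form of ATF6 bind together. It was searched in the promoter windows of RefSeq (GRCh38.p14, from 250 bases before to 50 bases after a start), on both strands and with N for any base, and 39 of the 42 members had a window. An exact match lay in 8 of these 39 members (20.5%), against 25 of 27305 genes with a window (0.0916%). The element was first described in promoters of this very kind, so its share among the members is a description of the list. The matches are shown because they are the feature that several members of unlike change share. Each is written 5′ to 3′ on the strand that reads CCAAT, with the CCAAT and CCACG boxes in capitals.
HSPA5: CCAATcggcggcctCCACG
XBP1: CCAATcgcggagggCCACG
HSP90B1, first match: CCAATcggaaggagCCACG
HSP90B1, second match: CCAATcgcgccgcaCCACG
CALR: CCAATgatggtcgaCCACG
CANX: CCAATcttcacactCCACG
PDIA6: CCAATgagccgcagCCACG
CRELD2: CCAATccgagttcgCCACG
ERO1B: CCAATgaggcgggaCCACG

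The spacers differed between genes, and the matches of CALR, CRELD2, ERO1B and the second of HSP90B1 ran antisense to the gene. The first base of the window's match lay 66 bases before the start in HSPA5, 52 in XBP1, 86 in PDIA6 and 80 in CRELD2. It lay farther out in CALR (225) and ERO1B (243). CANX has 4 windows in the table, and 3 of the 4 held the same match, at chr5:179698778-179698796. A shorter second form, ERSE-II, ATTGGNCCACG, was found in HERPUD1, HYOU1 and SDF2L1, 3 of 39 members (7.69%) against 19 of 27305 genes (0.0696%). The UPR element TGACGTGG, bound by XBP1 and ATF6, was found in HYOU1, SSR3 and SSR4, and in 0.927% of all genes with a window. An absent match says only that these letters are not in this window.

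Whole windows are printed for HSPA5, the member with the largest fall in absolute level, and for HYOU1, which held 3 matches. The HSPA5 window (chr9:125241294-125241593, minus strand) has its ERSE in capitals.
HSPA5: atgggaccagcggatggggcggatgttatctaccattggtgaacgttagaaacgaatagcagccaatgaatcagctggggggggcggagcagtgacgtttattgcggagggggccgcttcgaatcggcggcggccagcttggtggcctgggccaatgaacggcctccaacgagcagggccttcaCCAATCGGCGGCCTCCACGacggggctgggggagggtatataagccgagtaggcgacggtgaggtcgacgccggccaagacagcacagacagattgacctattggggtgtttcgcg

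The HYOU1 window (chr11:119057156-119057455, minus strand) has both ERSE-II matches and the UPR element in capitals. The UPR element shares 5 bases with the ERSE-II that lies farther from the start.
HYOU1: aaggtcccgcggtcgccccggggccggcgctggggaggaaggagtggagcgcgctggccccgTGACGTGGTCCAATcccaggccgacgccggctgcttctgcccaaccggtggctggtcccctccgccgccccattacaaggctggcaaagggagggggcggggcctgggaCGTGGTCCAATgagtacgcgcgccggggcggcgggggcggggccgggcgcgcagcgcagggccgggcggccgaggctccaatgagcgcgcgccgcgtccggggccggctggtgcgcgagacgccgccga

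Totals were 17184963 to 21721218 counts per library, and 15687 genes had enough counts to be tested. STRIP2 had FPKM values (fragments scaled by exon length and library total) of 3.19, 3.77 and 3.81 in si-NC and 2.71, 2.53 and 2.58 in si-STRIP2, so that 72.8% of the control level was fitted to remain (edgeR adjusted p = 1.62e-05). Of 8 epithelial markers, 6 were at 1 FPKM or more in every library, with a summed level of 690.67 to 720.74 FPKM in si-NC and 667.43 to 691.02 in si-STRIP2, while VIL1 and CEACAM5 were at most 0.03 FPKM. Within that sum CDH1 (-0.60), KRT18 (-0.18) and EPCAM (-0.11) fell, KRT19 (0.22) and CDX2 (0.38) rose, and KRT8 was not called. The part of these changes in the results was not tested. Summed over the marker lists, fibroblast genes reached 2.68 FPKM, nearly all of it COL1A1, with COL1A2 and DCN at 0. Leukocyte genes reached 0.67, endothelial genes 0.46, and plasma cell and other secretory genes, whose ER is enlarged, 0.14 FPKM, with INS, PRSS1 and CHGA at 0. The share of mitochondrial counts was 4.88% to 8.88% in si-NC and 5.73% to 6.30% in si-STRIP2. Its part in the results was not tested.

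Most of the ER genes were lower in si-STRIP2 cells. The largest falls were those of the membrane sensors, of XBP1 and CREB3L2, of HSPA5 and ERO1B, and of SEL1L. Of the 41 members tested, 27 fell, 7 rose and 7 were not called (edgeR, adjusted p under 0.05 over all genes tested). The same test called 54.8% of all genes, 27.8% higher and 27.0% lower. The median log2 fold change was -0.20 over the members and 0.014 over all genes. A change of at least 1.5-fold with a call was found for 8 members, all of them falls, against 14.5% of all genes. These were ERN1, EIF2AK3, ATF6, XBP1 and CREB3L2 among the sensors and signalling factors, HSPA5 and ERO1B among the folding genes, and SEL1L in degradation. HYOU1, at -0.58, lay just short of the limit. Control and knockdown FPKM ranges were apart for 34 members, 28 lower and 6 higher, where 58.6% of all genes did not overlap.

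**Figure D1:**
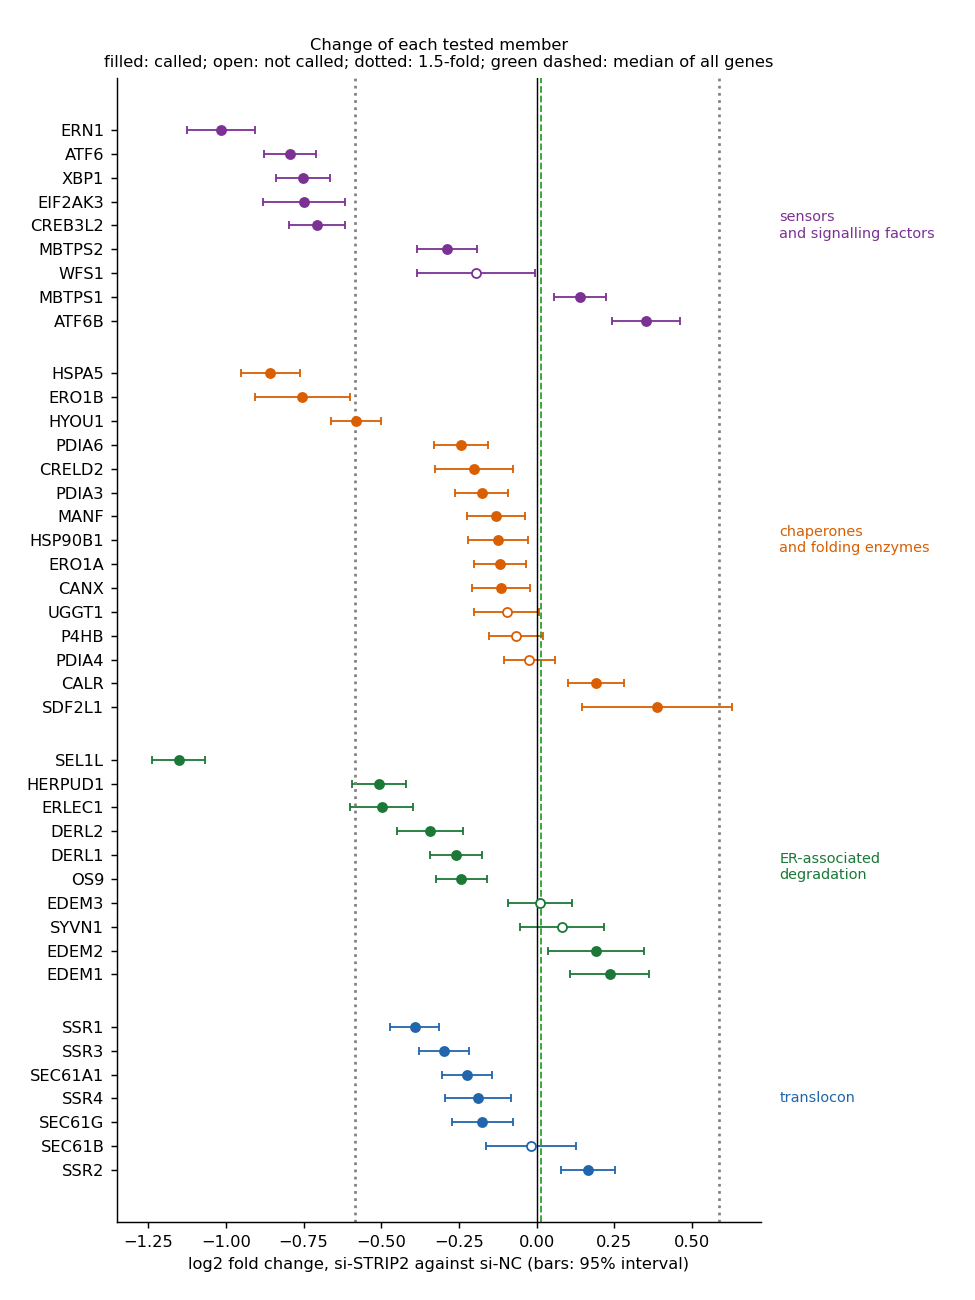
Log2 fold change of the 41 tested members in si-STRIP2 against si-NC, with 95% intervals, grouped by role. Sensors and signalling factors lie farthest to the left by their median, although ATF6B and MBTPS1 lie to the right of 0. ER chaperones lie mostly between -0.25 and 0, and 7 filled points lie to the right of 0.

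The role groups differed in size of change more than in direction. The median log2 fold change was -0.71 for sensors and signalling factors (6 lower and 2 higher of 9), -0.12 for chaperones and folding enzymes (10 lower and 2 higher of 15), -0.25 for degradation genes (6 lower and 2 higher of 10) and -0.19 for the translocon (5 lower and 1 higher of 7). These medians are descriptions, with no test between the groups. Of the 42 members, only DERL3 had too few counts to be tested, with 1 count in 1 library and 0 in the others. SMARCB1, opposite DERL3, shares 77.0% of its exon bases and held a mean of 1752 counts. Whether this overlap lowered the count of DERL3 was not tested. Every other member had at least 118 counts in each library, so each passed the count filter in both groups. A stricter test, against a change of 1.2-fold, called 12 members, all lower, and 23.7% of all genes. The 12 were ERN1, EIF2AK3, ATF6, XBP1, CREB3L2, HSPA5, HYOU1, ERO1B, SEL1L, HERPUD1, ERLEC1 and SSR1.

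All 3 membrane sensors of the unfolded protein response fell, to between 49.5% and 59.5% of the control level. ERN1 (ENSG00000178607, chromosome 17, 64039080 to 64130819, minus strand) had 3.09, 3.39 and 3.45 FPKM in si-NC and 1.65, 1.62 and 1.65 in si-STRIP2. The groups did not overlap, and the si-STRIP2 libraries were nearly equal. Its fitted log2 change was -1.02 ± 0.054 (SE, edgeR adjusted p = 4.18e-17). EIF2AK3 (chromosome 2, 88556741 to 88691518, minus strand) had 2.09, 2.11 and 1.91 FPKM in si-NC and 1.13, 1.24 and 1.28 in si-STRIP2. It was the lowest of the sensors in level, and its fitted log2 change was -0.75 ± 0.065 (SE, edgeR adjusted p = 7.14e-12). ATF6 (ENSG00000118217, chromosome 1, 161766298 to 161977574, plus strand) had 15.65, 16.21 and 15.76 FPKM in si-NC and 8.90, 9.06 and 9.57 in si-STRIP2. No si-STRIP2 library came near the control range, and the fitted log2 change was -0.79 ± 0.041 (SE, edgeR adjusted p = 2.34e-17).

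The paralogue ATF6B, which encodes a second membrane-bound factor cleaved like ATF6, moved the other way. It had 10.45, 11.08 and 10.73 FPKM in si-NC and 13.53, 14.36 and 13.33 in si-STRIP2, with no overlap and a log2 change of 0.35 ± 0.053 (SE, edgeR adjusted p = 9.97e-07). The ratio of ATF6 to ATF6B levels was 1.5, 1.46 and 1.47 in the control libraries and 0.658, 0.631 and 0.718 in the knockdown libraries. In FPKM, ATF6 was the higher of the pair in every si-NC library, and ATF6B in every si-STRIP2 library. This order depends on the exonic sizes used, 14263 bases for ATF6 and 3629 for ATF6B. In counts ATF6 stayed above ATF6B in si-STRIP2, with 2385, 2259 and 2350 against 922, 911 and 833. The change of the ratio between groups does not depend on the sizes. The proteases that cleave both were split in the same manner. MBTPS1 (site-1 protease) had 19.48, 19.07 and 19.35 FPKM in si-NC and 20.50, 21.71 and 21.77 in si-STRIP2 and rose by 0.14 on the log2 scale (edgeR adjusted p = 0.00406). MBTPS2 (site-2 protease) had 8.0, 8.17 and 7.79 FPKM in si-NC and 6.29, 6.89 and 6.50 in si-STRIP2 and fell by 0.29 (edgeR adjusted p = 4.48e-06). Neither pair of ranges overlapped, although both changes were small beside those of the sensors.

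XBP1 (ENSG00000100219, chromosome 22, 28794555 to 28800597, minus strand), the transcript that ERN1 splices, had the highest FPKM of the group. Its FPKM was 54.73, 58.99 and 53.85 in si-NC and 32.50, 34.25 and 32.90 in si-STRIP2. The fall, -0.75 ± 0.043 (SE) on the log2 scale (edgeR adjusted p = 2.08e-16), left 59.4% of the control level, close to that of EIF2AK3 and ATF6. CREB3L2, another membrane-bound factor that is released in the Golgi and drives secretory genes, had 15.81, 17.22 and 15.31 FPKM in si-NC and 9.82, 10.15 and 9.73 in si-STRIP2. It fell by 0.71 ± 0.044 (SE on the log2 scale, edgeR adjusted p = 2.62e-15). WFS1, an ER membrane protein tied to calcium and to control of ATF6, was the one gene of the group that was not called. Its values of 2.27, 2.63 and 2.75 in si-NC and 2.06, 2.51 and 2.11 in si-STRIP2 overlapped, and the log2 fold change was -0.20, 95% interval -0.38 to -0.01 (edgeR adjusted p = 0.0737). WFS1 passed when si-NC replicate 1 (edgeR adjusted p = 0.0259) or si-STRIP2 replicate 2 (0.0176) was left out, and over its 17 alternatives the adjusted p ranged from 0.0176 to 0.852.

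**Figure D2:**
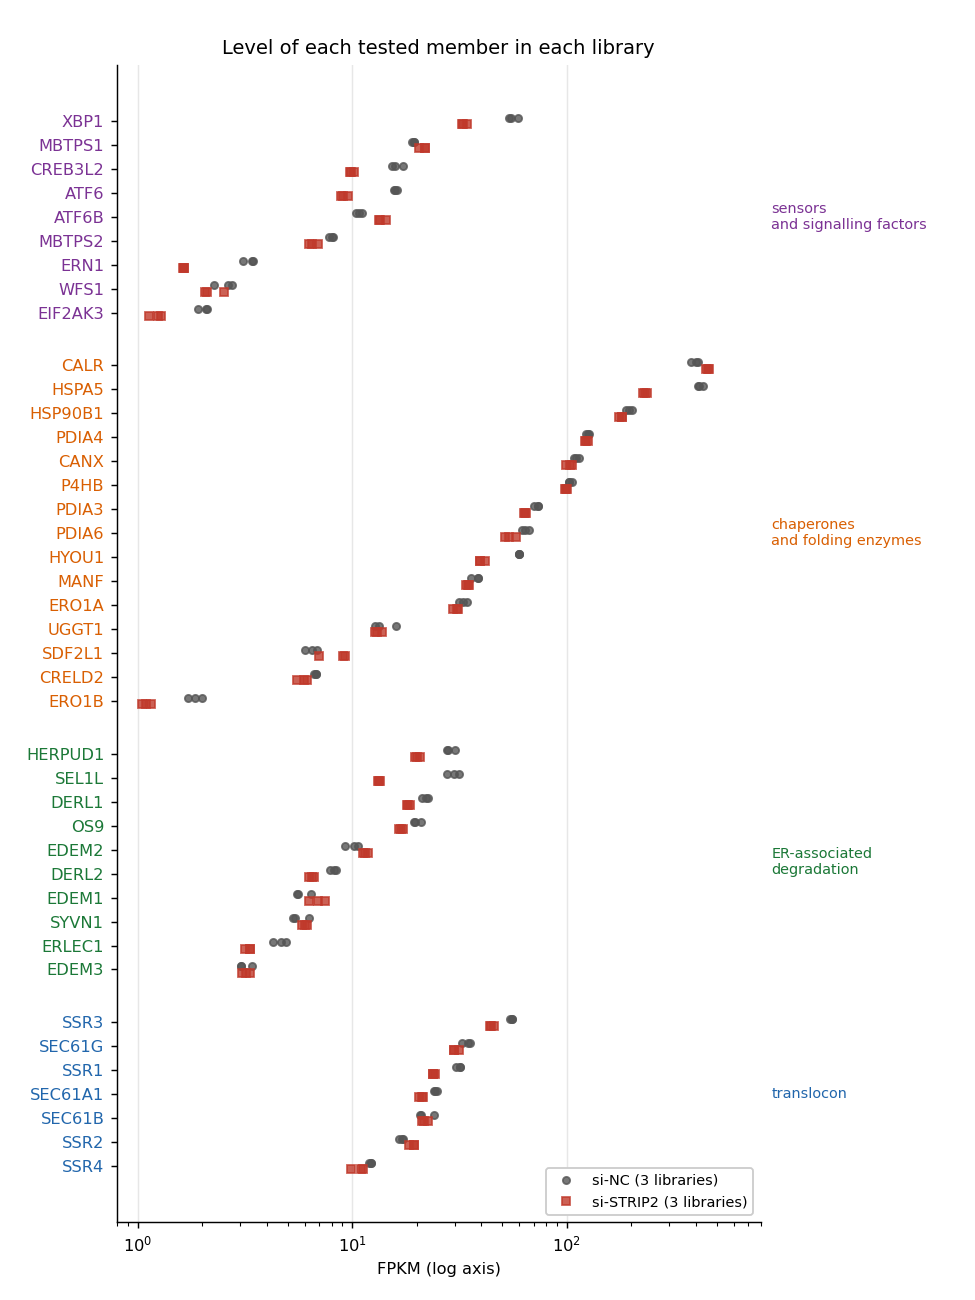
FPKM of the 41 tested members in each of the 6 libraries on a log axis, ordered by level within each role. Control circles and knockdown squares are well apart for ERN1, ATF6, XBP1, HSPA5 and SEL1L, and overlap for PDIA4, EDEM3 and SEC61B.

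Among the chaperones, HSPA5 had the largest fitted fall. HSPA5 (ENSG00000044574, chromosome 9, 125234853 to 125241382, minus strand), the HSP70 of the ER lumen, had 414.18, 429.99 and 410.47 FPKM in si-NC and 231.06, 236.39 and 226.73 in si-STRIP2. The groups lay far apart, with a log2 fold change of -0.86, a standard error of 0.047 and 55.2% of the control level left (edgeR adjusted p = 7.30e-17). HYOU1, a large HSP70-like protein that exchanges nucleotide on HSPA5, had 59.62, 60.08 and 59.84 FPKM in si-NC and 39.60, 41.53 and 39.19 in si-STRIP2. It fell by 0.58 ± 0.040 (SE on the log2 scale, edgeR adjusted p = 2.40e-14). HSP90B1 (GRP94), the HSP90 of the ER, had 194.05, 201.63 and 188.63 FPKM in si-NC and 175.14, 179.93 and 181.80 in si-STRIP2. Its ranges did not overlap, but the fall was only 0.12 on the log2 scale (edgeR adjusted p = 0.0274). That call was lost without si-NC replicate 1 (edgeR adjusted p = 0.0642), si-NC replicate 2 (0.0680), si-STRIP2 replicate 1 (0.138) or si-STRIP2 replicate 2 (0.0758), and its adjusted p ranged from 0.000669 to 1 over 18 alternatives.

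The calreticulin and calnexin pair, lectins that hold glycoproteins until they fold, was split. CALR (ENSG00000179218, chromosome 19, 12938578 to 12944489, plus strand) had 410.40, 398.59 and 381.39 FPKM in si-NC and 457.63, 458.68 and 445.33 in si-STRIP2. It rose by 0.19 ± 0.045 (SE on the log2 scale, edgeR adjusted p = 0.000499). CANX, the membrane-bound lectin, ranged from 107.98 to 113.87 FPKM in si-NC and from 98.95 to 105.95 in si-STRIP2 and fell by 0.11 (edgeR adjusted p = 0.0357). The CANX call was lost without si-NC replicate 1 (0.0858), si-NC replicate 2 (0.0703), si-STRIP2 replicate 1 (0.218) or si-STRIP2 replicate 2 (0.0924), each an edgeR adjusted p, in a range of 0.00369 to 1 over 18 alternatives. HSPA5 and CALR stood at nearly the same FPKM in control cells, with HSPA5 to CALR ratios of 1.01, 1.08 and 1.08. In knockdown cells the ratios were 0.505, 0.515 and 0.509, and CALR had the highest FPKM of the members in each library. FPKM is scaled by exonic size, which was 2802 bases for CALR, 6530 for HSPA5 and 13092 for HSP90B1. In counts HSP90B1 was highest there (43058, 41183 and 40992), then HSPA5 (28334, 26987 and 25499), while CALR had 24080, 22469 and 21491. The ranking of members by level thus depends on the size used. UGGT1, the enzyme that reglucosylates misfolded glycoproteins so that the lectins rebind them, was not called, with 13.37, 16.02 and 12.80 FPKM in si-NC against 13.72, 13.07 and 12.71 (95% interval of the log2 fold change -0.20 to 0.01). It passed without si-NC replicate 3 (edgeR adjusted p = 0.00574, in a range of 0.00574 to 1 over 18 alternatives).

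The disulfide enzymes among the members changed little, apart from ERO1B. The ERO1 oxidases pass oxidising equivalents to protein disulfide isomerases. ERO1B had 1.72, 1.84 and 1.99 FPKM in si-NC and 1.09, 1.05 and 1.15 in si-STRIP2, a fall of 0.75 ± 0.075 (SE on the log2 scale, edgeR adjusted p = 2.12e-10). ERO1A, the far more abundant oxidase, fell by 0.12, from between 31.60 and 34.33 FPKM to between 29.63 and 31.04 (edgeR adjusted p = 0.0153). The ratio of ERO1A to ERO1B was 19.2, 18.7 and 15.9 in si-NC and 27.2, 29.2 and 27.0 in si-STRIP2. PDIA6 had 64.00, 66.60 and 62.15 FPKM in si-NC and 51.68, 57.69 and 53.78 in si-STRIP2, the largest fall among the isomerases (-0.24 ± 0.043 SE, edgeR adjusted p = 1.11e-05). PDIA3, which works with the lectins, fell by 0.18 (edgeR adjusted p = 0.00057), with its named pseudogenes at 4.32% of its counts. PDIA4 and P4HB, both near or above 100 FPKM, were not called. Their log2 fold changes were -0.02 (95% interval -0.11 to 0.06) and -0.07 (95% interval -0.15 to 0.02), so that at this depth falls as large as that of PDIA6 lie outside both intervals.

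Small luminal proteins that are known as targets of the response did not move together. SDF2L1, a partner of ER J-domain proteins, had 6.04, 6.87 and 6.48 FPKM in si-NC and 9.05, 9.24 and 7.02 in si-STRIP2, and rose by 0.39 ± 0.119 (SE, log2) on only 118 to 180 counts per library (edgeR adjusted p = 0.0064). The si-STRIP2 libraries were uneven, the third lying just above the highest control. MANF, a secreted cofactor of HSPA5, fell by 0.13 (edgeR adjusted p = 0.0161), and CRELD2, a secreted disulfide isomerase, by 0.20 (edgeR adjusted p = 0.00596). The call of MANF was lost without si-NC replicate 1 (edgeR adjusted p = 0.0892) or si-STRIP2 replicate 1 (0.0877), that of ERO1A without si-NC replicate 2 (0.0672) or si-STRIP2 replicate 1 (0.109), and that of CRELD2 without si-STRIP2 replicate 2 (0.0513). Over 18 alternatives the adjusted p ranged from 0.00253 to 1 for MANF, from 0.00139 to 1 for ERO1A and from 0.00369 to 0.947 for CRELD2. Without si-STRIP2 replicate 1, the count of folding genes called lower was 6 in place of 10. Opposite CRELD2, ALG12 shares 3.25% of its exon bases and held 24.2% as many counts.

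Summed over the 15 folding genes, the level was 1655.13, 1680.31 and 1601.75 FPKM in si-NC and 1432.61, 1458.05 and 1434.36 in si-STRIP2. Without HSPA5 the sums were 1240.95, 1250.32 and 1191.28 against 1201.55, 1221.66 and 1207.63, and the groups overlapped. The ratio of HSPA5 to HSP90B1 went from 2.13, 2.13 and 2.18 to 1.32, 1.31 and 1.25. In bulk RNA a lower level per cell and fewer cells with a high level cannot be told apart.

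**Figure D3:**
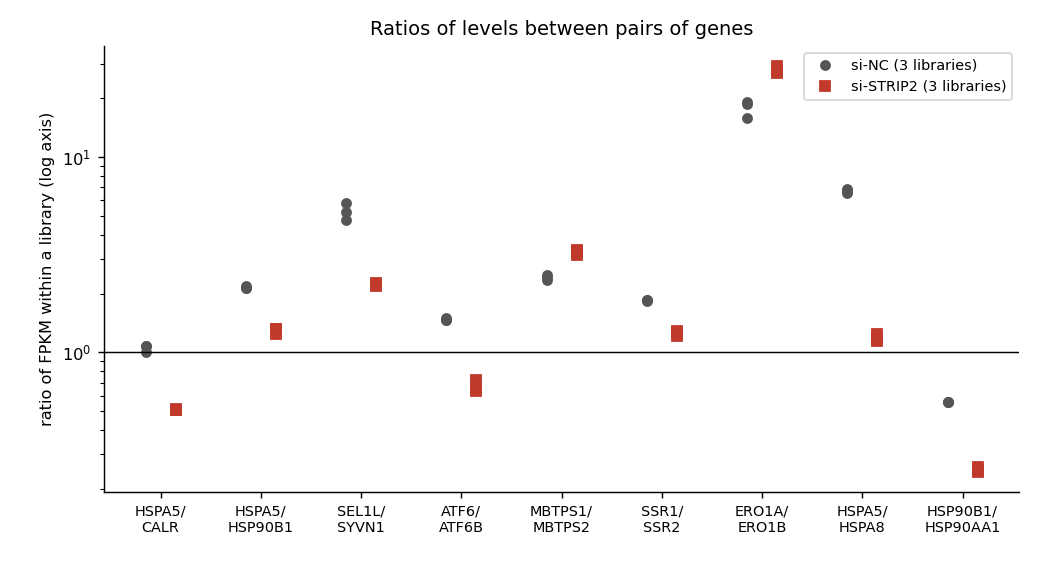
Ratio of FPKM between pairs of genes within each library, on a log axis. The 3 control and 3 knockdown libraries do not overlap for any of the 9 pairs, and the ATF6 to ATF6B and HSPA5 to CALR ratios lie on opposite sides of 1 in the 2 groups. The side of 1 depends on the exonic sizes that scale FPKM, while the shift between groups does not.

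Degradation genes were led by SEL1L, the largest fall among all members. SEL1L is the adaptor that holds the ubiquitin ligase SYVN1 (HRD1) together with the lectins and derlins that bring substrates to it. SEL1L (ENSG00000071537, chromosome 14, 81471547 to 81533853, minus strand) had 27.69, 31.40 and 29.80 FPKM in si-NC and 13.50, 13.35 and 13.20 in si-STRIP2. Every knockdown library stood below 14 FPKM, and the fitted log2 change was -1.15 ± 0.043 (SE, edgeR adjusted p = 2.02e-21), which left 45.0% of the control level. SYVN1 itself was not called, with 5.32, 5.42 and 6.26 FPKM in si-NC and 6.16, 6.03 and 5.80 in si-STRIP2 (log2 fold change 0.08, 95% interval -0.05 to 0.22). It passed as higher without si-NC replicate 3 (edgeR adjusted p = 0.0488, in a range of 0.0488 to 1 over 18 alternatives). The ratio of SEL1L to SYVN1 was 5.20, 5.79 and 4.76 in si-NC and 2.19, 2.21 and 2.28 in si-STRIP2. The value of SYVN1 is uncertain, since FAU on the same strand and MRPL49 opposite it share 7.24% and 6.48% of its exon bases and held 397% and 235% as many counts.

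HERPUD1, a membrane protein that gathers the HRD1 complex and is a target of the response, had 28.01, 29.96 and 27.74 FPKM in si-NC and 19.54, 20.79 and 20.06 in si-STRIP2. It fell by 0.51 ± 0.043 (SE on the log2 scale, edgeR adjusted p = 3.78e-12). The lectins that read trimmed glycans fell as well. ERLEC1 had 4.63, 4.92 and 4.28 FPKM in si-NC and 3.33, 3.16 and 3.32 in si-STRIP2 (log2 fold change -0.50 ± 0.050 SE, edgeR adjusted p = 2.27e-10), and OS9 fell by 0.24 (edgeR adjusted p = 4.59e-06). Both derlins that could be tested, channel-like proteins of retrotranslocation, fell too. DERL2 had 8.25, 8.40 and 7.91 FPKM in si-NC and 6.52, 6.26 and 6.62 in si-STRIP2 (log2 fold change -0.34 ± 0.052 SE, edgeR adjusted p = 9.61e-07), with MIS12 opposite it at 102% of its counts on 4.71% of its exon bases. DERL1 fell by 0.26 (edgeR adjusted p = 2.06e-06), with TBC1D31 opposite it at 32.4% of its counts.

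None of the 3 EDEM genes, whose proteins trim mannose and mark glycoproteins for disposal, was called lower. EDEM1 rose by 0.23, from 5.55, 5.58 and 6.43 FPKM to 7.47, 6.25 and 6.93 (edgeR adjusted p = 0.00194), although the groups overlapped, since the second knockdown library lay below the third control. EDEM2 rose by 0.19, from between 9.27 and 10.63 FPKM to between 11.25 and 11.84 (edgeR adjusted p = 0.0324). The EDEM2 call was lost without si-NC replicate 2 (0.0576), si-NC replicate 3 (0.151), si-STRIP2 replicate 1 (0.0870) or si-STRIP2 replicate 2 (0.0616), each an edgeR adjusted p, in a range of 0.0146 to 0.932 over 18 alternatives. EDEM3 was not called, at 3.03, 3.41 and 3.04 FPKM against 3.07, 3.18 and 3.32 (log2 fold change 0.01, 95% interval -0.09 to 0.11).

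No translocon gene changed by 1.5-fold, and the largest change was -0.39 on the log2 scale. The TRAP complex, encoded by SSR1 to SSR4, sits beside the SEC61 channel and helps some chains to enter. SSR1 had 31.62, 31.71 and 30.59 FPKM in si-NC and 23.75, 23.71 and 24.25 in si-STRIP2 (log2 fold change -0.39 ± 0.039 SE, edgeR adjusted p = 2.06e-10). SSR3, the highest of the 4 in FPKM, had 54.18, 55.30 and 55.30 in si-NC and 44.08, 44.34 and 45.93 in si-STRIP2 (log2 fold change -0.30 ± 0.039 SE, edgeR adjusted p = 7.62e-08). Both subunits stood well apart between the groups. SSR2 moved the other way, from 17.24, 17.11 and 16.56 FPKM to 18.43, 19.44 and 19.40 (log2 fold change 0.17 ± 0.042 SE, edgeR adjusted p = 0.00122). The ratio of SSR1 to SSR2 fell accordingly, from 1.83, 1.85 and 1.85 to 1.29, 1.22 and 1.25. SSR4 fell by 0.19 (edgeR adjusted p = 0.00246), with IDH3G opposite it at 49.6% of its counts on 6.06% of its exon bases.

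In the channel itself, SEC61A1, the pore subunit, had 24.80, 24.32 and 24.16 FPKM in si-NC and 20.43, 21.36 and 21.14 in si-STRIP2, with a log2 change of -0.22 ± 0.040 (SE, edgeR adjusted p = 1.33e-05). RUVBL1, opposite it on 7.32% of its exon bases, held 59.7% as many counts. The small subunit SEC61G fell by 0.17 (edgeR adjusted p = 0.00277). SEC61B was not called, at 24.07, 20.88 and 20.74 FPKM against 21.67, 22.43 and 21.23 (log2 fold change -0.02, 95% interval -0.16 to 0.13). The submitters' sources used here do not state whether counting used strand, so reads of genes that overlap on opposite strands may not have been told apart.

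Members with and without an ER stress element in their window overlapped widely in their change. Among the 11 members with an ERSE or ERSE-II the median was -0.24 (log2), with 9 lower and 2 higher and a range from -0.86 to 0.39. The 28 members with a window but neither element had a median of -0.18, with 16 lower and 5 higher and a range from -1.15 to 0.35. HSPA5, XBP1 and ERO1B, with 1 exact ERSE each, fell by 0.75 to 0.86. PDIA6 (-0.24), CRELD2 (-0.20) and CANX (-0.11), also with 1 each, fell less. HSP90B1, with 2 exact matches, fell by 0.12, and CALR, with 1, rose. Near matches were not counted, so these numbers do not rank the genes by their number of elements. Outside the list, 9 other genes with an ERSE were tested, of which 5 were lower, 1 higher and 3 not called. Among the 11057 tested genes with a window and no ERSE, 28.7% were lower and 29.7% higher. The 5 lower were SYNPO (log2 fold change -1.36), NLRP4 (-1.17), FICD (-1.06), SERP1 (-0.49) and TRIM5 (-0.17). Of these, FICD encodes an enzyme that adds AMP to HSPA5, and SERP1 a small protein of the translocon. EIF2A was the 1 that rose (0.29). These genes may not all be separate sites. EIF2A and SERP1 overlap on opposite strands, and ALG12, one of those not called, overlaps the member CRELD2 on the opposite strand. Whether such neighbours were counted for the same match was not tested. Of 12 other tested genes with an ERSE-II, 2 were lower, 5 higher and 5 not called.

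**Figure D4:**
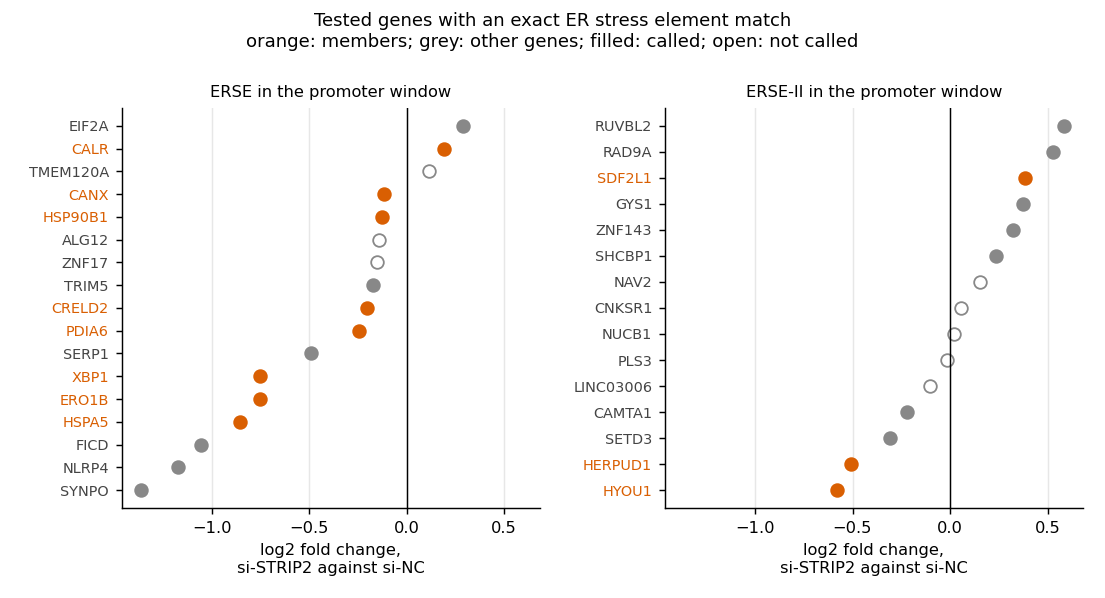
Log2 fold change of every tested gene whose promoter window held an exact ERSE (left) or ERSE-II (right), with members in orange and other genes in grey. The 8 members with an ERSE run from -0.86 (HSPA5) to 0.19 (CALR), and the 3 with an ERSE-II from -0.58 (HYOU1) to 0.39 (SDF2L1).

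Other genes of the pathway were described from lists of textbook members. All 7 genes of the ER J-domain and nucleotide exchange list, the helpers of HSPA5, fell, against 27.0% of all genes. Their median log2 fold change was -0.41. DNAJB9, which also restrains ERN1, fell most, from 17.8 ± 0.957 to 7.67 ± 0.415 FPKM (SD, n = 3; log2 fold change -1.22, edgeR adjusted p = 4.43e-17), followed by DNAJC3 (-0.45) and DNAJB11 (-0.41) in order of adjusted p. Of 20 other oxidoreductases and prolyl isomerases tested, 12 fell and 2 rose (70% called against 54.8% of all genes, median -0.21), with FKBP9 at -0.53, PDIA5 at -0.59 and ERP44 at -0.49. Of 12 listed genes of the PERK arm and its targets, 9 fell and 3 rose (100% called against 54.8% of all genes, median -0.23). The 3 with the smallest adjusted p were PPP1R15A, whose protein brings a phosphatase to eIF2 alpha (-0.81), TRIB3 (-0.76) and DDIT3, the factor CHOP (-0.78). ATF4, which lies between PERK and these genes, was among the 3 that rose, at 0.25 (edgeR adjusted p = 2.60e-06), with ASNS and EIF2A, an initiation factor distinct from eIF2 alpha. EIF2S1, which encodes eIF2 alpha itself, fell by 0.49 (edgeR adjusted p = 7.59e-12).

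The lists farther from the sensors were mixed. In other ER-associated degradation, 11 fell and 6 rose of 29 (median -0.06), so that 58.6% were called, close to the 54.8% of all genes. VCP, the ATPase that pulls substrates out of the membrane, rose by 0.63, while SELENOK fell by 0.64 and UBE2J1, a conjugating enzyme of the HRD1 complex, by 0.46. In signal recognition and other translocon genes, 14 fell and 9 rose of 33 (69.7% called, median -0.09), with SPCS3 at -0.63, EMC7 at -0.59 and GET3 at 0.62. In glycan trimming, 5 fell and 4 rose of 13 (69.2% called, median 0.00013), and the leading genes were the Golgi mannosidases MAN1A1 (-0.75) and MAN1A2 (-0.84) and the cargo receptor subunit MCFD2 (-0.52). In the oligosaccharyltransferase, 5 fell and 3 rose of 11 (72.7% called, median 0.03), none by 1.5-fold, with RPN2 at -0.25, STT3B at -0.21 and MAGT1 at -0.17.

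Among ER-phagy receptors, 4 fell and 2 rose of 10 (60% called, near the 54.8% of all genes, median -0.046). The smallest adjusted p was that of CCPG1, which went from 4.06 ± 0.0557 to 1.44 ± 0.0721 FPKM (SD, n = 3; log2 fold change -1.50, edgeR adjusted p = 4.14e-18), before RTN3 (-0.45) and RETREG1 (-0.55). In COPII transport 6 fell and 6 rose of 17 (70.6% called, median -0.054), with MIA2 at -0.92, SEC23B at -0.46 and SEC24C at 0.55. In the list of other CREB3 family and response genes, 5 fell and 2 rose of 15 (46.7% called, below the share of all genes, median -0.0046), with BCL2L11, the pro-apoptotic BIM, at -1.13, SERP1 at -0.49 and TMED2 at -0.28. NFYA, NFYB and NFYC, the subunits of NF-Y, were not called.

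Chaperones outside the ER went the other way. All 17 genes of that list rose, where 54.8% of all genes were called and 27.8% were called higher. Of the 17, 15 are cytosolic and 2, HSPD1 (0.77) and HSPE1 (0.63), are the chaperonin of the mitochondrial matrix. The median log2 fold change was 0.63, and in order of adjusted p the first were HSPA8 (1.64), DNAJA1 (1.03) and HSP90AA1 (1.03). The ratio of HSPA5 to the cytosolic HSP70 gene HSPA8 was 6.51, 6.69 and 6.88 in si-NC and 1.25, 1.18 and 1.14 in si-STRIP2. The ratio of HSP90B1 to the cytosolic HSP90 gene HSP90AA1 was 0.559, 0.560 and 0.558 in si-NC and 0.258, 0.245 and 0.248 in si-STRIP2. Neither ratio overlapped between the groups. These lists and pairs were chosen with earlier results known, and the contrast is a description.

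**Figure D5:**
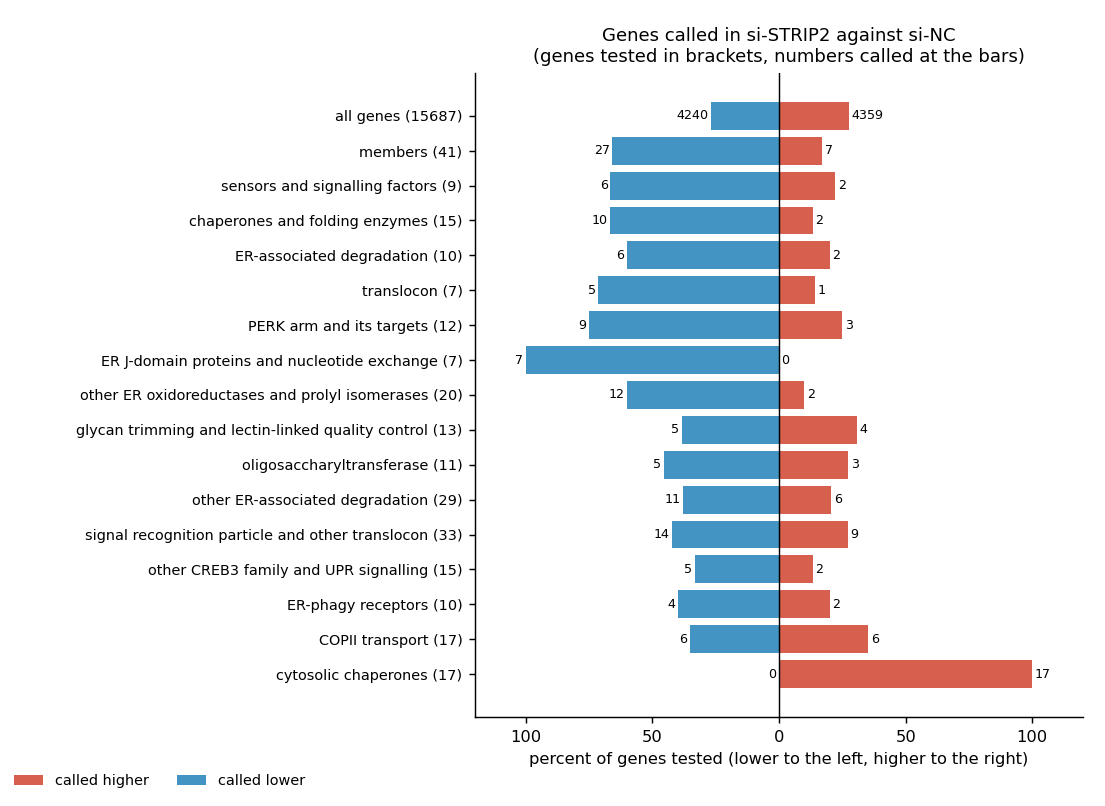
Percent of tested genes called lower (left) and higher (right) for all genes, the 41 members, the 4 role groups and 11 further lists, with the number called at each bar. Members and J-domain genes extend mainly to the left, all 17 genes of the list drawn as cytosolic chaperones, which holds HSPD1 and HSPE1 of mitochondria, to the right, and all genes almost equally to both sides.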

How the data were processed

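Directional libraries were prepared from polyadenylated RNA after TRIzol extraction, per the labels' protocols. The deposited table gives a raw count and an FPKM value per gene and library, per the file headers. The deposited FPKM differed from a recomputation with the counts, exonic size and library total by at most 0.005, their rounding. The submitters' processing notes name HISAT2 2.2.1, HTSeq 0.6.1, cutadapt 1.9.1 and the build GRCh38.p13. The strand setting of counting is not given in the sources used here. Coordinates are those of the deposited table.

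Counts were tested in R 4.3.3 with edgeR 4.0.16: filterByExpr (minimum count 10), TMM scaling, a quasi-likelihood fit with group as the only term, and Benjamini-Hochberg adjustment over 15687 genes. A call is an adjusted p under 0.05. Standard errors are the absolute log2 fold change over the square root of F. The test was also run on simulated counts with 100 genes changed by 0.5 and 100 by 1 (log2). It recovered 70% and 81% of them, and 4.43% of its calls were unchanged genes. Far fewer genes changed there than were called here, so the run does not check the test at such a share. Alternatives included DESeq2 1.42.0 and limma 3.58.1.

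The members, lists and pairs were chosen with earlier results of these data known. Values per library are given for all sensors, and in each other role for the 4 members with the smallest adjusted p. There they are also given for the member with the highest mean FPKM, any changed 1.5-fold, and some others chosen after their values were seen. ATF4, EIF2A, EIF2S1, ASNS, HSPD1, HSPE1 and the NF-Y genes were also chosen after their values were seen. So were FICD, SYNPO, NLRP4, TRIM5 and SERP1, as ERSE genes. Each further list is named by its 3 smallest adjusted p-values. One symbol of the degradation list was not matched to the table. Exon overlaps and pseudogenes are from GENCODE 29, and promoter windows from RefSeq. Intervals reflect these 3 libraries a group. Precision is limited by counts, 118 to 58747 per library for tested members.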

Additional observations from a re-analysis of the deposited data

How the results depend on the processing

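Results were recomputed under 18 alternatives. No called member changed direction under any of them, and 12 of the 34 called members kept their call under each that tested them (ERN1, EIF2AK3, ERLEC1 and ERO1B were not tested at 5 FPKM). The test against a 1.2-fold change left 12 of 34 calls (12 lower and 0 higher). By role they were 5 sensors and signalling factors, 3 folding genes, 3 degradation genes and 1 translocon gene, none of them higher. Degradation genes called higher were 1 in place of 2 with no filter and under DESeq2, as EDEM2 missed the threshold. The median of the sensors and signalling factors was -0.51 at 5 FPKM, where 6 were tested. It was -0.45 under limma on log2(FPKM + 1), whose pseudocount shrinks low genes. P4HB was called at 5 FPKM (-0.08, edgeR adjusted p = 0.0335) and under DESeq2 (adjusted p = 0.0444).

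With each library left out in turn, the median change (log2) was -0.22 to -0.18 for the members. It was -0.74 to -0.67 for sensors and signalling factors, -0.16 to -0.11 for folding genes and -0.28 to -0.24 for degradation genes. Folding genes called lower ranged from 6 to 11 and degradation genes called higher from 1 to 2. Also, 2 genes that were not called changed sign: EDEM3 without si-NC replicate 1 (-0.0156), si-NC replicate 3 (-0.0159) or si-STRIP2 replicate 3 (-0.024), and SEC61B without si-NC replicate 1 (0.066). Their ranges were -0.024 to 0.056 and -0.061 to 0.066. The causes were not tested.

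The labels do not say whether libraries with the same replicate number were paired. Same-numbered deviations from the group means correlated at -0.086, -0.013 and -0.072 over genes, and different-numbered ones at -0.040 to 0.112. With 3 libraries a group, such correlations cannot decide whether the libraries were paired. With the replicate number as a block, HSP90B1 (edgeR adjusted p = 0.0622) and CANX (0.0688) lost their calls, and the other called members kept theirs. The share of all genes called with the block is not given here.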
